A study of Mus musculus with 47 samples.

Results

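The livers described here are the wild-type livers of the litter sets behind 2 Daxx knock-in alleles, compared over all genes. Of the 47 libraries of the series, 8 are wild-type livers at embryonic day E18.5, and they were chosen by the labels for tissue, genotype and litter. The allele segregating in a litter defined its set, so that 4 livers came from S226A litters and 4 from Y130A litters, each liver from 1 embryo of a different litter. Daxx is a histone chaperone, and the Y130A change removes its binding to Atrx while S226A removes its binding to histone H3.3. All 8 embryos were labelled wild type for Daxx. Both alleles were made in C57BL/6N zygotes, the founders were backcrossed to C57BL/6J, and the embryos came from crosses between heterozygotes, so that the genetic background was a mixture of the substrains. Livers of the sets are called S226A-litter livers 1 to 4 and Y130A-litter livers 1 to 4, after the replicate numbers of the labels. Each set was the control group of its own mutant, and comparing them shows how far the controls differed before any mutant was considered. The set, the litters and the sequencing depth cannot be told apart in this comparison.

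Shortly before birth, the liver is still a site of blood formation while its hepatocytes take on the metabolism they need once the placental supply ends. Glycogen is stored, enzymes of gluconeogenesis, amino acid breakdown and drug metabolism are switched on around birth, and fatty acid oxidation rises once milk replaces glucose. Genes of the hepatoblast, the bipotent precursor of hepatocytes and bile duct cells, are turned down over the same days.

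The total count was 17462973 to 20833652 reads in the S226A-litter livers and 38069327 to 54885020 in the Y130A-litter livers, without overlap (two-sided exact permutation test of means, p = 0.0286, the smallest p that 4 against 4 allows, and 0.129 after Benjamini-Hochberg adjustment over 9 measures). The share of reads on the 100 most abundant genes was 36.0% ± 0.416 against 37.8% ± 0.834 (SD, n = 4 each) with the same p of the exact test. Secreted plasma proteins, the markers of hepatocytes, took 15.4% to 17.1% of the reads of every library, so that all 8 were liver. The summed level of Y-linked genes was above 10 CPM in 2 of 4 livers of each set and at most 1.15 CPM in the others. S226A-litter liver 2 stood apart on the first principal component, which held 33.6% of the variance, and it held transcripts of squamous epithelium that are treated first below. The closest libraries of a set differed by 12.5 times the sampling noise (chi-square per degree of freedom), so that none was a copy of another.

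Squamous epithelium lines skin, mouth and oesophagus, and its keratins and cornified envelope proteins are not made by liver cells. The summed level of 27 squamous genes was 1525 CPM in S226A-litter liver 2 and 6.82 to 18.2 CPM in the other 7 livers, where CPM are counts scaled to a common library size with TMM factors. Krt5, a keratin of the basal layer, was at 34.2 CPM in that liver and at 0 to 0.24 CPM in the others, and Krt10, a keratin of the differentiating layers, was at 33.9 CPM against 0.49 to 1.10 CPM. Across all 8 livers, 15 of the 25 genes tested were higher in the S226A litters at an adjusted p below 0.05, with a median log2 fold change of 4.91. Without that liver 1 gene was higher and the median was −0.25. Results are given with this liver unless stated otherwise. Of the genes named below with an adjusted p below 0.05, Cyp2f2, Pdk4, Pgm2, Cpb1 and Hspb1 lost that call without it, with adjusted p values of 0.0831, 0.154, 0.055, 0.0576 and 0.851.

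With all 8 livers, 70 of 16892 genes (0.414%) passed the 3 criteria of the main rule, which were an adjusted p below 0.01, more than a 2-fold change and a standard error (SE) of the log2 fold change below 1 in edgeR's quasi-likelihood test. Of these, 41 were higher in the S226A litters (0.243% of the genes tested) and 29 were lower (0.172%). Without S226A-litter liver 2, 142 genes (0.834%) were called, 56 higher (0.329%) and 86 lower (0.505%), and 59 of the 70 were among them. The standard rule of an adjusted p below 0.05 alone called 2209 genes (13.1%), 670 higher (3.97%) and 1539 lower (9.11%), so that small differences towards lower levels in the S226A litters prevailed. This split depended on the scaling, because with RLE size factors in place of TMM 930 genes were higher and 884 lower (51.3% higher, against 30.3%), and the median log2 fold change of all genes moved from −0.04 to 0.00. Without S226A-litter liver 2 the standard rule called 2353 genes (13.8%), 608 higher (3.57%) and 1745 lower (10.2%).

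Leaving out Y130A-litter liver 4 reduced the main calls to 30 (0.178%) and the standard calls to 1174 (6.97%; 1.87% of the genes tested higher and 5.1% lower), whereas leaving out Y130A-litter liver 3 raised the main calls to 122. Of the 70 genes, 16 were called in every fit that left out 1 of the 8 livers. These counts rested on a spread estimated over all 47 libraries. When edgeR was fitted to the 8 livers alone, 0 genes passed the main rule, 510 (3.65%) had an adjusted p below 0.05 and 3028 had an unadjusted p below 0.05. DESeq2 on all libraries called 150 genes under the main rule, with 60 of the 70 among them. Of the 70 genes, 20 had an adjusted p below 0.05 in the fit of the 8 livers alone, and 50 had levels that did not overlap between the sets, against 10.7% of all genes tested (3.27% higher and 7.46% lower). Both counts were taken on the livers that gave the calls, so that they are no separate support for them. When all libraries were thinned to the same total, 60 genes were called under the main rule, 46 of them among the 70, and 1630 under the standard rule.

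**Figure D1:**
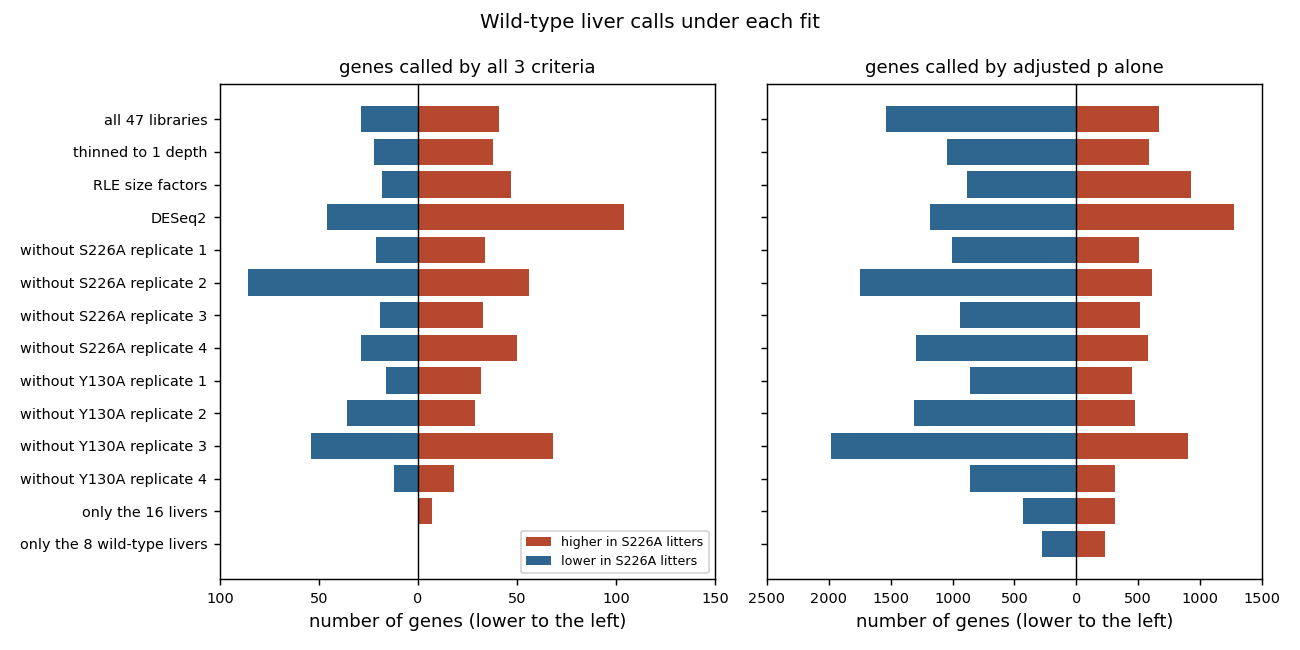
Number of genes called between the wild-type livers of the S226A and Y130A litters (horizontal axis, lower genes to the left in blue, higher genes to the right in red) for each fit (vertical axis), under all 3 criteria on the left and an adjusted p below 0.05 alone on the right. The main calls ranged from 30 without Y130A-litter liver 4 to 142 without S226A-litter liver 2 among the fits that left out 1 liver, and 0 genes passed the 3 criteria in the 8 livers alone.

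Several genes of hepatocyte metabolism that are switched on around birth were higher in the S226A litters, while others of the same pathways were lower. Tat, tyrosine aminotransferase, a classical enzyme of the perinatal liver (GRCm38 chr8:109990437-109999803), was at 65.7, 38.3, 54.5 and 38.4 CPM in S226A-litter livers 1 to 4 and at 23.3, 15.8, 22.7 and 8.21 CPM in Y130A-litter livers 1 to 4. All 4 livers of the first set lay above all of the second, with Y130A-litter liver 4 lowest. The log2 fold change of Tat was 1.49 (SE 0.342, adjusted p = 0.00359), 1.60 without S226A-litter liver 2 and 1.26 without Y130A-litter liver 4 (adjusted p = 0.0258), and in the 8 livers alone the adjusted p was 0.0163.

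Drug-metabolizing enzymes, the cytochromes P450 and conjugating enzymes of hepatocytes, had 6 of 31 members higher and 0 lower at an adjusted p below 0.05, with a median log2 fold change of 0.37 beside −0.04 over all genes. Over all genes, 3.97% were higher and 9.11% lower, and the counts of each list in wild-type liver are to be read against these shares. Without S226A-litter liver 2 the count was 7 and the median 0.53. It was 10 without Y130A-litter liver 3, 4 without S226A-litter liver 4 or Y130A-litter liver 1 (median 0.57 without the latter), 3 without S226A-litter liver 1 or Y130A-litter liver 2 and 2 without S226A-litter liver 3. Without Y130A-litter liver 4 it was 1 higher and 1 lower with a median of 0.41, and Cyp3a44, Cyp2b9, Cyp2f2, Fmo5 and Nr1i3 lost their calls. Cyp3a25, a cytochrome of the CYP3A family, was at 147, 57.4, 100.97 and 139 CPM in the S226A litters and at 44.8, 23.0, 65.2 and 5.27 CPM in the Y130A litters. S226A-litter liver 2 lay among the Y130A litters for this gene, and Y130A-litter liver 4 lay far below the rest. Its log2 fold change was 1.69 (SE 0.443, adjusted p = 0.0114) and 1.33 without Y130A-litter liver 4 (adjusted p = 0.0361), while the 8 livers alone gave an adjusted p of 0.0743. Cyp3a44, whose reads may be shared with other CYP3A genes, had a log2 fold change of 1.90 (adjusted p = 0.0266). The other 4 higher members were Cyp2b9, Cyp2f2, the flavin monooxygenase Fmo5 and Nr1i3, the nuclear receptor CAR that controls several of these enzymes, with log2 fold changes from 0.69 to 1.41.

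Fatty acid and triglyceride synthesis had 5 of 19 members higher in the S226A litters and 0 lower, with a median of 0.31. The higher members were Fasn, fatty acid synthase, the acetyl-CoA carboxylase gene Acaca, the desaturase gene Fads1, and the regulators Mlxipl (ChREBP) and Srebf1. Fasn was at 1258, 1048, 1185 and 1344 CPM in the S226A litters and at 845, 812, 842 and 656 CPM in the Y130A litters. These levels did not overlap, and the means differed 1.53-fold (log2 fold change 0.62, SE 0.141, adjusted p = 0.00359, and 0.0124 in the 8 livers alone). Mlxipl, the carbohydrate-responsive activator of Fasn, stood at 68.7, 62.8, 85.01 and 80.0 CPM against 39.5, 41.1, 54.5 and 31.2 CPM, again without overlap (log2 fold change 0.83, SE 0.212, adjusted p = 0.008). The difference in Fasn was also present in lung (log2 fold change 0.62, adjusted p = 0.00315), whereas that in Mlxipl was −0.03 there (adjusted p = 0.97). Without S226A-litter liver 2, Thrsp, Elovl5 and Fads2 joined the called members, which then numbered 8, and without Y130A-litter liver 4 there were 3.

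Cholesterol synthesis and uptake had 5 of 24 members higher and 1 lower, with a median of −0.01. Without S226A-litter liver 4 there were 2 higher members, and without Y130A-litter liver 4 there were 3. Among the higher members were the sterol carrier gene Stard4, with a log2 fold change of 0.46 (adjusted p = 0.00288), and the synthesis enzymes Hsd17b7 (0.51, adjusted p = 0.0159) and Sc5d (0.38, adjusted p = 0.0176). Without Y130A-litter liver 4, the adjusted p was 0.013 for Stard4, 0.0539 for Hsd17b7 and 0.0697 for Sc5d. Ebp, another enzyme of the same pathway, was lower with −0.45 (adjusted p = 0.00695). Bile acid synthesis and transport had 0 of 19 members called with all 8 livers and 1 without S226A-litter liver 2, although the median was 0.28, and 0.17 without Y130A-litter liver 4. That 1 gene was Nr0b2, the nuclear receptor SHP, with 3.93, 1.77, 4.67 and 3.43 CPM against 1.30, 1.08, 0.49 and 0.30 CPM (adjusted p = 0.0542 with all 8 livers and 0.0401 without that liver). Peroxisomal, omega oxidation and other PPARA target genes had 1 of 21 members higher, Plin2, which coats lipid droplets (0.28), and 1 lower, the pyruvate dehydrogenase kinase gene Pdk4 (−0.53). The median of that list was 0.20, was 0.08 without S226A-litter liver 1 or Y130A-litter liver 2 and turned to −0.05 without Y130A-litter liver 4, where 0 members were called, while 4 were higher and 0 lower without Y130A-litter liver 3 and 3 higher and 0 lower without S226A-litter liver 2.

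Hamp, which encodes hepcidin, the hormone that limits iron uptake (GRCm38 chr7:30942368-30944032), had the largest log2 fold change among the 3 higher members of the hepcidin and BMP target list. It was at 28.1, 9.27, 7.26 and 2.82 CPM in the S226A litters and at 1.67, 1.25, 1.11 and 1.27 CPM in the Y130A litters. The lowest S226A-litter liver lay above the highest Y130A-litter liver, and S226A-litter liver 1 stood highest. The log2 fold change was 3.15 (SE 0.719, adjusted p = 0.00438), and in the 8 livers alone the adjusted p was 0.0148. Without S226A-litter liver 1 the log2 fold change was 2.27 (adjusted p = 0.0392), and the call was lost with DESeq2 (adjusted p = 0.0587) and with limma voom (adjusted p = 0.0851). Among the mutant littermates, Hamp was also higher in the S226A than in the Y130A livers (2.72, adjusted p = 0.00343). Tfr2, a sensor of transferrin upstream of hepcidin, and Bmp2 were the other higher members of the 12 tested, while the BMP targets Id1, Smad6 and Smad7 gave adjusted p values of 0.417 to 0.876. The higher members numbered 1 without S226A-litter liver 4, Y130A-litter liver 2 or Y130A-litter liver 4.

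Genes of glucose and glycogen metabolism did not move as 1 group. Pck1, the rate-limiting enzyme of gluconeogenesis, was at 53.9, 24.4, 88.1 and 42.0 CPM against 21.9, 14.96, 27.5 and 4.12 CPM (log2 fold change 1.60, SE 0.476, adjusted p = 0.0223), and the call was lost without Y130A-litter liver 4 (adjusted p = 0.0902), S226A-litter liver 3 (adjusted p = 0.118) or Y130A-litter liver 2 (adjusted p = 0.0527). Hexokinase genes tested alongside it went the other way. Hk1, the hexokinase of most tissues outside the adult hepatocyte, had a log2 fold change of −0.27 (adjusted p = 0.00911), and the related Hkdc1 was at 21.9, 45.0, 17.0 and 29.8 CPM against 74.0, 69.2, 50.4 and 95.1 CPM (−1.34, SE 0.286, adjusted p = 0.00195). The levels of Hkdc1 did not overlap between the sets.

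In the glycogen part of the pathway, 5 of 14 members of the gluconeogenesis and glycogen list were lower and Pck1 was the 1 that was higher. Pygl, the liver glycogen phosphorylase, was at 786, 866, 728 and 782 CPM against 1216, 1151, 1005 and 1211 CPM, without overlap (−0.54, SE 0.089, adjusted p = 0.000199, and 0.0139 in the 8 livers alone). Ugp2, Pgm1 and Pgm2, which form and interconvert glucose phosphates, were lower as well. For glycolysis and the uptake of glucose and fructose, 6 of 13 members were lower and 2 higher, among them the fructose pathway gene Tkfc. The higher members numbered 0 without S226A-litter liver 1 or S226A-litter liver 3 and 1 without S226A-litter liver 4, Y130A-litter liver 1 or Y130A-litter liver 4, and the lower members 4 without Y130A-litter liver 4. Aldoa, the aldolase of fetal and muscle tissue, was at 282, 274, 284 and 256 CPM against 516, 388, 401 and 514 CPM (−0.73, SE 0.115, adjusted p = 0.000125). Pfkl, Pkm, Ldha, Hk1 and the glucose transporter Slc2a1 were the other lower members.

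Fatty acid oxidation and ketogenesis had 0 of 17 members higher and 5 lower, with a median of −0.16. With RLE size factors, 2 were lower and the median was −0.10, and without Y130A-litter liver 1 there were 2 as well. The medium-chain dehydrogenase gene Acadm was at 386, 556, 417 and 450 CPM against 766, 648, 622 and 646 CPM (−0.57, SE 0.104, adjusted p = 0.000532), and Hadh, Hadha, Acadvl and Acaa2 were lower by smaller amounts. Of 30 genes of the urea cycle and amino acid breakdown, 2 were higher and 3 lower with a median of −0.04, shares near those over all genes. The lower members numbered 1 without S226A-litter liver 3 or Y130A-litter liver 1. The lower members included Fah, the last enzyme of the tyrosine pathway that Tat opens, at 383, 515, 394 and 455 CPM against 732, 681, 598 and 659 CPM (−0.61, SE 0.10, adjusted p = 0.000171). Tat and Fah, the first and the last step of 1 pathway, thus lay on opposite sides.

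**Figure D2:**
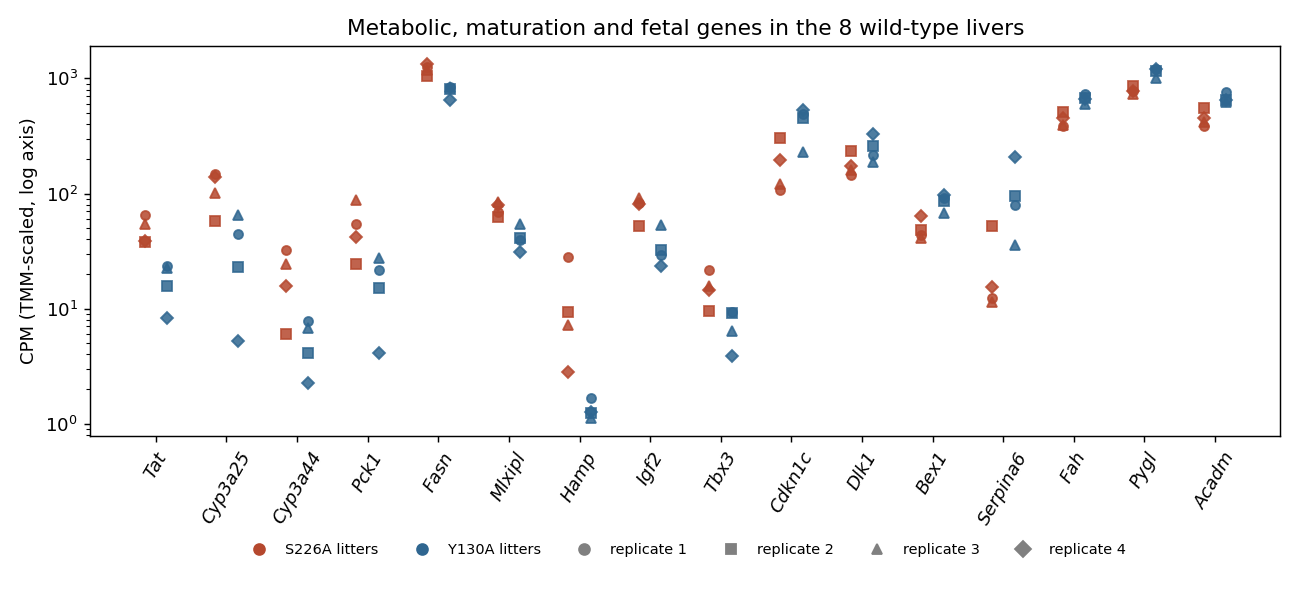
Level of 16 genes in each of the 8 wild-type livers, in TMM-scaled CPM on a log axis (vertical), with genes on the horizontal axis, colour for the litter set and marker shape for the replicate. Tat, Fasn, Mlxipl, Hamp and Tbx3 lay higher in every S226A-litter liver than in any Y130A-litter liver, Bex1, Fah, Pygl and Acadm lay lower, and Y130A-litter liver 4 (diamonds) was lowest for Tat, Cyp3a25 and Pck1.

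Fetal and hepatoblast genes gave 4 of 18 members lower and 1 higher, with a median of −0.23. Without S226A-litter liver 1 or Y130A-litter liver 4 there were 2 lower members. Cdkn1c, an imprinted inhibitor of the cell cycle (GRCm38 chr7:143458339-143461050), was at 108, 301, 121 and 195 CPM against 490, 451, 228 and 535 CPM. S226A-litter liver 2 and Y130A-litter liver 3 met in the middle, and the log2 fold change was −1.23 (SE 0.232, adjusted p = 0.000642) and −1.59 without S226A-litter liver 2. Bex1 was lower without overlap (−0.80, adjusted p = 0.0024), but it was also lower in lung (−1.39) and brain (−0.72). Dlk1, a hepatoblast surface protein, was lower with −0.48 (adjusted p = 0.0436, and 0.259 without Y130A-litter liver 4), and Igf2bp2 was the fourth. Igf2, the main fetal growth factor, was the 1 higher member at 83.1, 52.1, 91.1 and 81.0 CPM against 29.4, 32.6, 53.5 and 23.4 CPM (1.15, SE 0.261, adjusted p = 0.00342), with S226A-litter liver 2 just below Y130A-litter liver 3. Igf2r, which clears Igf2, was lower in all 4 S226A-litter livers (−0.45, SE 0.094, adjusted p = 0.0018). In the list of the insulin-like growth factor axis, Igf2r and the higher Insr were the 2 called members of 14. Insr was called in 2 of the 8 fits that left out 1 liver (adjusted p of 0.0943 without S226A-litter liver 1 and 0.183 without Y130A-litter liver 4). The abundant fetal marker Afp was at 31399 to 37943 CPM against 32330 to 48085 CPM and was not called (−0.26, SE 0.91, adjusted p = 0.917).

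Among 17 transcription factors of hepatocytes, Tbx3 and Prox1 were higher and 0 lower. Tbx3, a factor of hepatoblast expansion, was at 21.7, 9.53, 15.8 and 14.5 CPM against 9.29, 9.20, 6.40 and 3.85 CPM, with S226A-litter liver 2 just above the Y130A litters (1.10, SE 0.22, adjusted p = 0.00111). Of 25 secreted plasma proteins, 1 was lower and 0 higher. Their summed level was 196943 to 203481 CPM against 214933 to 248675 CPM, without overlap. The spread was estimated over all 47 libraries, and in wild-type lungs of the S226A litters the list summed to 33.0 to 535 CPM. A missing call in this list, as for Alb, therefore does not show equal levels. The 1 lower member was Serpina6, the corticosteroid-binding globulin, with 12.3, 52.3, 11.4 and 15.5 CPM against 79.3, 95.0, 35.9 and 206 CPM. S226A-litter liver 2 lay above Y130A-litter liver 3, and the log2 fold change was −2.19 (SE 0.595, adjusted p = 0.0143) with all livers, −2.99 without S226A-litter liver 2 and −1.61 without Y130A-litter liver 4 (adjusted p = 0.093). Without S226A-litter liver 1 or S226A-litter liver 3 the adjusted p was 0.0511 and 0.0541. Alb was at 115470 to 120609 CPM against 125153 to 144322 CPM and was not called (SE 0.871, adjusted p = 0.963), although its levels did not overlap. Among genes that respond to glucocorticoids, Cdkn1a was the 1 called of 14 (0.66, adjusted p = 0.0482), and it was called in 2 of the 8 fits that left out 1 liver.

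Within the sets, the metabolic lists did not follow the set alone. The mean deviation of the 31 drug-metabolizing genes from their mean over the 8 livers, on the log2(CPM + 1) scale, was 0.37, −0.10, 0.40 and 0.30 in S226A-litter livers 1 to 4 and −0.09, −0.17, 0.13 and −0.84 in Y130A-litter livers 1 to 4. S226A-litter liver 2, the liver with the squamous transcripts, was within the range of the Y130A litters, and Y130A-litter liver 3 was the highest of its set. Bile acid, PPARA target and interferon-stimulated genes had the lowest value in Y130A-litter liver 4 as well. The calls of many named genes depended on single livers. Without Y130A-litter liver 4, the genes of metabolism, maturation and growth named here that lost an adjusted p below 0.05 were Acaca, Srebf1, Hsd17b7, Sc5d, Plin2, Pdk4, Pgm2, Pck1, Ldha, Slc2a1, Acaa2, Cyp3a44, Cyp2b9, Cyp2f2, Fmo5, Nr1i3, Serpina6, Dlk1, Igf2bp2, Insr, Prox1, Cdkn1a, Tfr2 and Bmp2. Of the blood, other cell type, stress and clock genes they were Fech, S100a8, Epx, Gp1ba, Spp1, Cpb1, Hsd3b1, Akr1b7, Sesn2, Atf5, Hspd1, Hspe1, Hspb1, Saa3, Saa4, Hlf, Bhlhe41 and the squamous gene Krt5. Without S226A-litter liver 1, the calls of Hk1, Tkfc, Sc5d, Plin2, Pdk4, Acaa2, Cyp3a44, Cyp2b9, Nr1i3, Serpina6, Dlk1, Igf2bp2, Insr, Cdkn1a, Tfr2, Adora2b, Lrrc73, Fech, S100a8, Epx, Gp1ba, Spp1, Cpb1, Hsd3b1, Akr1b7, Sesn2, Atf5, Hspe1, Saa3, Saa4, Hlf and Bhlhe41 were lost. Without S226A-litter liver 3, those of Pck1, Tkfc, Plin2, Pdk4, Acaa2, Cyp3a44, Cyp2b9, Cyp2f2, Nr1i3, Serpina6, Dlk1, Insr, Prox1, Cdkn1a, Tfr2, Fech, S100a8, Epx, Gp1ba, Emcn, Cpb1, Hsd3b1, Sesn2, Atf5, Hspd1, Hspe1, Saa3, Saa4, Hlf and Bhlhe41 were lost. Without S226A-litter liver 4, those of Srebf1, Hsd17b7, Sc5d, Plin2, Pgm2, Cyp2b9, Nr1i3, Dlk1, Insr, Cdkn1a, Tfr2, Bmp2, Slc19a3, Fech, S100a8, Gp1ba, Spp1, Cpb1, Hsd3b1, Atf5, Saa4 and Bhlhe41 were lost. Without Y130A-litter liver 1, those of Pkm, Hadha, Acadvl, Acaa2, Pdk4, Cyp2b9, Nr1i3, Insr, Prox1, Cdkn1a, Bmp2, Fech, S100a8, Epx, Gp1ba, Emcn, Spp1, Hsd3b1, Sesn2, Atf5, Hspd1, Hspe1, Hspb1, Saa3, Saa4, Hlf, Bhlhe41 and Krt5 were lost. Without Y130A-litter liver 2, those of Pck1, Sc5d, Plin2, Acaa2, Cyp3a44, Cyp2f2, Nr1i3, Dlk1, Insr, Cdkn1a, Tfr2, Bmp2, Gp1ba, Hsd3b1, Atf5, Hspb1, Saa4 and Krt5 were lost, and without Y130A-litter liver 3 those of Pdk4, Igf2bp2 and Saa3. Tat, Fasn, Mlxipl, Cyp3a25, Stard4, Ebp, Hamp, Pygl, Ugp2, Pgm1, Aldoa, Pfkl, Hkdc1, Acadm, Hadh, Fah, Idh2, Cdkn1c, Bex1, Igf2, Igf2r, Tbx3, Urod, C1qa, Ide and Chka had an adjusted p below 0.05 in each of the 8 fits.

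The citric acid cycle, respiratory chain and ribosomal protein lists had another order, in which Y130A-litter liver 3 lay with the S226A litters and the other 3 Y130A-litter livers lay above.

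**Figure D3:**
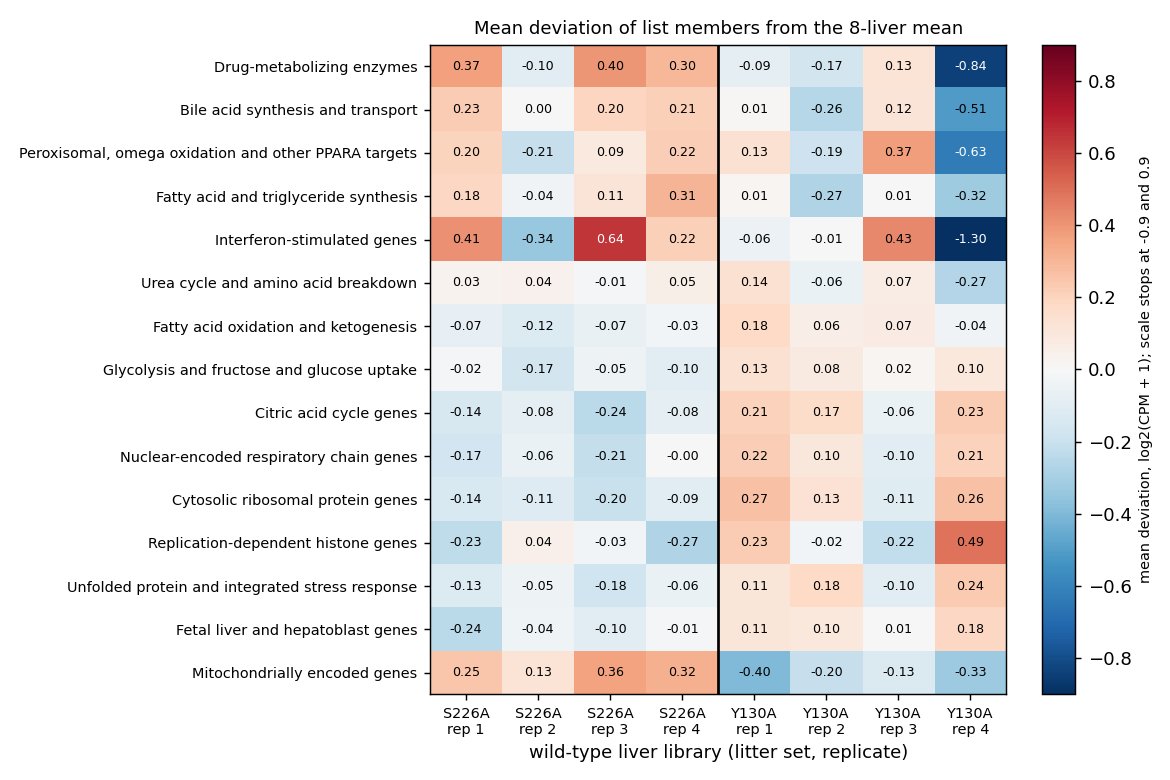
Mean deviation of the members of 15 gene lists (rows) from their mean over the 8 wild-type livers (columns), in log2(CPM + 1), with the colour scale stopping at 0.9 in either direction. Drug-metabolizing genes ran from −0.84 in Y130A-litter liver 4 to 0.40 in S226A-litter liver 3, and ribosomal protein genes were below 0 in the 4 S226A-litter livers and in Y130A-litter liver 3.

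The lower genes were in part those of mitochondria and ribosomes, which every tissue uses. Of 14 citric acid cycle genes, 7 were lower and 0 higher (median −0.27). Idh2, a mitochondrial isocitrate dehydrogenase, was at 225.9, 257, 216 and 240.0 CPM against 384, 374, 307 and 429 CPM, without overlap (−0.67, SE 0.08, adjusted p = 1.41e-06, and 0.0122 in the 8 livers alone), and Idh2 was also lower in lung (−0.60, adjusted p = 7.39e-06) and brain (−0.27, adjusted p = 0.0347). These counts stand beside 9.11% of all genes lower and 3.97% higher in liver. Of 95 nuclear-encoded respiratory chain genes, 27 were lower and 1 higher (Atp5e). Of 77 mitochondrial ribosomal protein genes, 19 were lower and 0 higher. Of 76 cytosolic ribosomal protein genes, 40 were lower and 1 higher with a median of −0.31, and with RLE size factors 26 were lower and 1 higher. These counts moved with single livers. The cytosolic count of lower genes was 18 without Y130A-litter liver 1, 20 without Y130A-litter liver 4 and 24 without S226A-litter liver 3. The respiratory chain count was 15 without S226A-litter liver 3 or Y130A-litter liver 1, 16 without Y130A-litter liver 4, 18 without S226A-litter liver 1 and 47 without Y130A-litter liver 3. The mitochondrial ribosomal count was 8 without Y130A-litter liver 4, 9 without Y130A-litter liver 1, 11 without S226A-litter liver 3, 12 without Y130A-litter liver 2 and 34 without Y130A-litter liver 3. The medians of the 3 lists stayed negative in each of these fits. Rpl7a was at 612, 623, 551 and 586 CPM against 1015, 903, 764 and 980 CPM (−0.63, SE 0.103, adjusted p = 0.000186). The 3 lists of citric acid cycle, respiratory chain and mitochondrial ribosomal genes were chosen after values of these data were seen, and so was the list of predicted genes named further below.

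Members of the same lists were also lower in lung and brain of the same litters, where 9.24% and 4.51% of all genes were lower, and in the mutant livers, where 16.1% were. Among the ribosomal protein genes, 40 were lower in lung and 27 in brain, and in the mutant livers of the litters 34 were lower, with medians of −0.35, −0.27 and −0.23. Among the respiratory chain genes, 39 were lower in lung, 17 in brain and 41 in the mutant livers. For the mitochondrial ribosomal genes these counts were 25, 14 and 18, and for the citric acid cycle genes 8, 2 and 7. When the liver difference was tested against the mean of those in lung and brain, 0 genes of the ribosomal, respiratory chain and mitochondrial ribosomal lists differed at an adjusted p below 0.05 in edgeR. That fit had no term for embryo or litter, although the tissues were mostly of the same embryos, so that the pairing was not used. Replication-dependent histone genes, whose transcripts mostly lack a poly(A) tail and are near-identical copies, had 5 of 63 lower and 1 higher in liver, which is no larger a share than the 9.11% of all genes that were lower. The lower members numbered 1 without Y130A-litter liver 1 or 4, 2 without S226A-litter liver 1 or 4, 3 without S226A-litter liver 3 and 15 without Y130A-litter liver 3. In brain 31 were lower and in the mutant livers 35.

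Over all genes, of the 1539 lower in liver under the standard rule 668 (43.4%) were also lower in lung, where 9.24% of the genes tested were, 362 (23.5%) in brain, where 4.51% were, and 855 (55.6%) in the mutant livers, where 16.1% were. Of the 670 higher genes, 223 (33.3%) were also higher in lung (10.8% of genes tested), 25 (3.73%) in brain (1.47%) and 182 (27.2%) in the mutant livers (9.58%). In all 4 comparisons, 216 genes were lower and 9 higher. These overlaps were counted with TMM scaling only, and the excess of lower genes depended on it. Brain had 249 higher and 761 lower genes with TMM, but 483 and 380 with RLE size factors, 712 and 604 with DESeq2, and 391 and 369 after thinning. The mutant livers had 1618 higher and 2716 lower genes with TMM, 1885 and 2289 with RLE size factors and 2142 and 2616 with DESeq2. The tissues are those of the same litters, mostly of the same embryos, and the libraries of the S226A litters were shallower in each, so that litter set and depth moved together in all of them.

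The drug-metabolizing genes had 1 of 31 members higher in lung and 1 lower in brain, with medians of 0.00 and 0.04, and the mutant livers of the same litters had 1 higher and 2 lower with a median of −0.07. Fatty acid synthesis genes had 5 of 19 higher in lung, 1 in brain and 2 in the mutant livers, where 3 were lower. Over all genes, 10.8% were higher and 9.24% lower in lung, 1.47% higher and 4.51% lower in brain, and 9.58% higher and 16.1% lower in the mutant livers. Of the drug-metabolizing and fatty acid synthesis genes, 0 had a liver difference that departed from the mean of lung and brain at an adjusted p below 0.05. The test had no term for the embryos that the tissues shared. That the test was not passed does not show that the tissues moved alike.

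**Figure D4:**
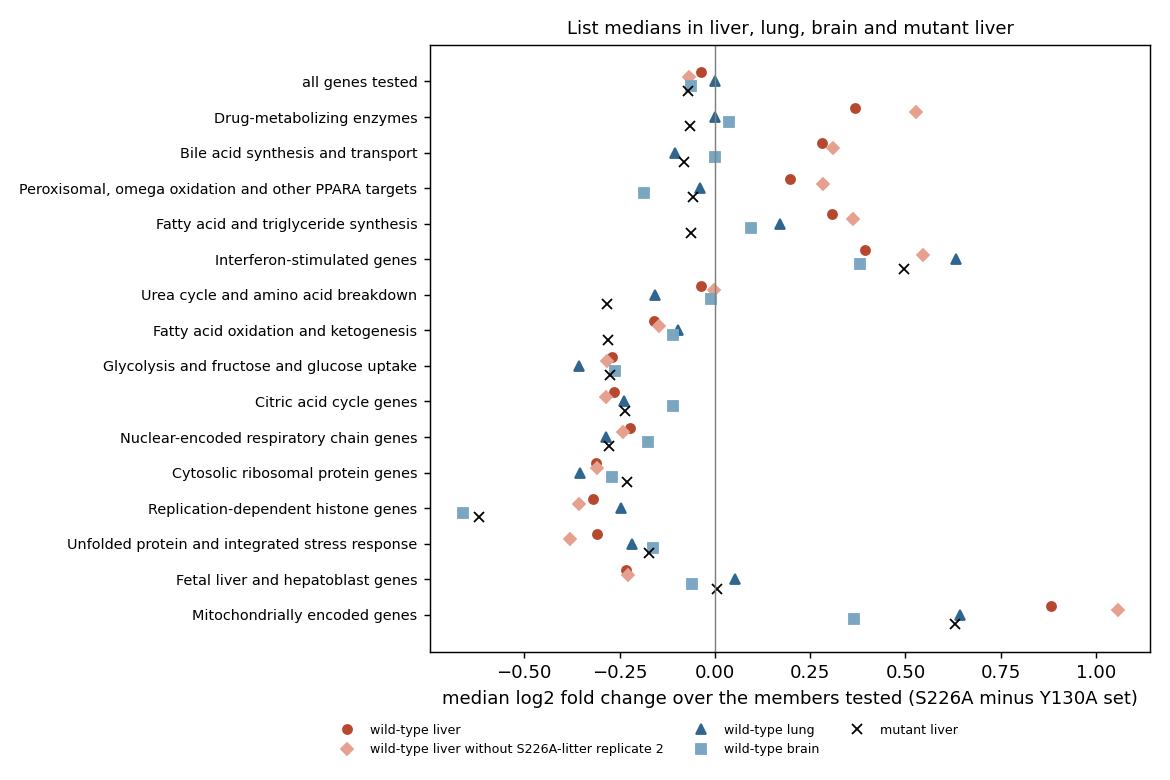
Median log2 fold change between the S226A and Y130A sets (horizontal axis) of 15 gene lists and of all genes tested (vertical axis) in wild-type liver with and without S226A-litter liver 2, wild-type lung, wild-type brain and mutant liver. Drug-metabolizing genes had a median of 0.37 in wild-type liver and between −0.07 and 0.04 elsewhere, whereas ribosomal protein genes lay between −0.35 and −0.23 in all.

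Of 25 genes whose set difference in wild-type liver departed from that in lung and brain by more than 1 on the log2 scale at an adjusted p below 0.01 (0.148% of the genes tested), without a limit on the SE, 18 departed upwards (0.107%) and 7 downwards (0.0414%). Without S226A-litter liver 2 there were 61, 24 upwards and 37 downwards, so that the prevailing direction turned. With limma voom and sample quality weights 0 genes passed, 60 had an adjusted p below 0.05 (4 upwards and 56 downwards) and 1764 an unadjusted p below 0.05. All these fits treated the tissues of 1 embryo as separate samples. Tmem150c was at 5.34, 5.72, 4.02 and 4.90 CPM in the S226A litters and at 2.79, 1.94, 2.71 and 2.03 CPM in the Y130A litters (1.08, SE 0.149, adjusted p = 3e-05), with log2 fold changes of −0.31 in lung and −0.18 in brain, and the liver difference exceeded these by 1.32 (adjusted p = 2.66e-05). Astn2, a gene of neuronal migration, was at 1.04, 0.66, 0.50 and 0.86 CPM against 2.57, 2.67, 2.99 and 2.30 CPM in liver (−1.76, adjusted p = 8.62e-05) but higher in lung (0.76, adjusted p = 0.00253). Neither gene was called between the mutant livers of the sets (adjusted p = 0.421 and 0.178). Below that size, Igf2r (−0.55, adjusted p = 0.00934), Fah (−0.55, adjusted p = 0.0211), Bicc1 (−0.69, adjusted p = 0.0185) and Plin2 (0.49, adjusted p = 0.0279) also departed from lung and brain. The log2 fold change of Igf2r was 0.01 in lung (adjusted p = 0.976) and 0.20 in brain (adjusted p = 0.221).

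A group of 12 predicted genes around Gm10800, whose sequences are near-identical repeats and whose reads cannot be assigned with certainty, made up 12 of these 25 genes. Gm10800 itself was at 1494, 478, 2756 and 2565 CPM in the S226A litters and at 410, 463, 431 and 706 CPM in the Y130A litters, with S226A-litter liver 2 again among the Y130A litters, and it was not called in liver (1.86, SE 0.863, adjusted p = 0.148). In lung and brain all 12 were lower in the S226A set, with medians of −6.97 and −5.82, so that the sign was opposite.

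Of the genes with the smallest p in liver, Chka, choline kinase, an enzyme of phosphatidylcholine synthesis, was at 187, 128, 210 and 184 CPM against 85.2, 76.6, 114 and 59.6 CPM, a 2.12-fold difference of means (1.08, SE 0.156, adjusted p = 5.86e-05, and 0.0139 in the 8 livers alone). It was also higher in lung (0.47, adjusted p = 0.044) and in the mutant livers (0.55, adjusted p = 0.0079). Vkorc1, the reductase of the vitamin K cycle, was at 10.7, 8.81, 11.1 and 12.1 CPM against 4.91, 4.34, 3.93 and 5.06 CPM (1.22, SE 0.239, adjusted p = 0.000889), and its liver difference exceeded that of lung and brain by 1.21 (adjusted p = 0.0357). Gipr, the receptor of the gut hormone GIP, was at 1.41, 3.61, 2.80 and 2.08 CPM against 10.8, 10.4, 6.36 and 20.9 CPM (−2.30, SE 0.424, adjusted p = 0.000545), and it was lower in the S226A set among the mutant livers as well (−2.90, adjusted p = 1.78e-05). None of these 3 genes overlapped between the sets.

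Other genes of this rank were weakly expressed. Cacna1b, a calcium channel subunit, was at 15.5, 5.13, 11.7 and 11.7 CPM against 3.42, 0.97, 4.80 and 1.03 CPM (2.11, SE 0.348, adjusted p = 0.000199). Rims3, a synaptic gene, was at 3.01, 3.81, 3.88 and 3.43 CPM against 1.43, 1.25, 1.91 and 0.58 CPM (1.45, adjusted p = 0.000632), and among the mutant livers it was lower in the S226A set (−2.74, adjusted p = 5.03e-06). Fstl3, an inhibitor of activins, Mras, a small GTPase, and Zmynd10, an assembly factor of ciliary dynein, were lower without overlap with log2 fold changes of −1.44, −1.19 and −1.54. Msantd1, Tmeff2 and Nat14 were higher with 1.79, 1.61 and 1.85, and Dnah2 and Zbtb8b were lower with −1.24 and −1.14. Adora2b, an adenosine receptor, was at 1.47, 0.13, 0.22 and 0.80 CPM against 0.07 to 0.11 CPM. Gm10031, which was higher, and Gm14410, which was lower, belong to predicted genes with close copies and are uncertain.

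Among genes called under the main rule with and without S226A-litter liver 2, the largest fitted changes belonged in part to genes with few reads. For these only reads are given. Slc19a3, a thiamine transporter, had 7, 0, 0 and 10 reads in the S226A litters and 2, 0, 0 and 0 in the Y130A litters, which were sequenced more deeply. Nek11 had 8, 4, 3 and 0 reads against 2, 0, 0 and 0. In the other direction, Kif6 had 0, 4, 0 and 0 reads against 19, 21, 19 and 13, BC030870 had 0, 2, 0 and 1 against 22, 17, 27 and 16, and Rrad had 3, 5, 0 and 0 against 40, 17, 27 and 23. The reads are those of the libraries as sequenced, with the S226A-litter libraries the shallower ones. Gm49601, Chrm3 and Lrrc73 were of the same kind, with at most 45 reads in any of the 8 livers.

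Of the 12 mitochondrially encoded genes tested, which the tissue transcribes from its own mitochondrial genome and whose reads can be shared with nuclear copies, 5 were higher and 1 lower. The higher genes numbered 3 without Y130A-litter liver 1 or Y130A-litter liver 4 and 7 without Y130A-litter liver 3, and of the fits that left out 1 liver those without S226A-litter liver 3 and without Y130A-litter liver 4 had 1 lower gene and the others 0. mt-Nd2 was at 164, 143, 164 and 227 CPM against 51.5, 82.9, 82.5 and 64.1 CPM (1.31, SE 0.247, adjusted p = 0.000644), and mt-Nd4 at 230, 152, 179 and 210 CPM against 78.8, 99.5, 97.0 and 79.3 CPM (1.12, SE 0.239, adjusted p = 0.00198). Both lay higher in every S226A-litter liver. The abundant mt-Co1 lay the other way, at 7401 to 8212 CPM against 9106 to 10592 CPM (−0.31, SE 0.139, adjusted p = 0.129), so that the summed level of the list was 9898 to 11189 CPM in the S226A litters and 11326 to 12500 CPM in the Y130A litters. The median of the list was 0.88, against the sign of its sum. In lung, mt-Nd4 was higher as well (1.76, adjusted p = 1.8e-05), and in brain 3 of the genes were lower and 0 higher, where 4.51% and 1.47% of all genes were.

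Genes of blood cells and of other cell types are given beside the shares of all genes that were called in liver, 3.97% higher and 9.11% lower. Because these were bulk samples, fewer cells of a type and less RNA per cell cannot be told apart. Of 23 erythroid genes, the haem synthesis genes Urod (−0.45, adjusted p = 0.000574) and Fech (−0.34) were lower and 0 higher, and of the adult and the embryonic globin genes 0 were called. Their adult sum was 18110 to 24745 CPM against 20067 to 29962 CPM. Of 17 macrophage and Kupffer cell genes, 4 were lower, a larger share than over all genes, and their summed level was 1724 to 1872 CPM against 1940 to 2149 CPM, without overlap. The count was 1 without S226A-litter liver 3 or Y130A-litter liver 1 and 2 without S226A-litter liver 1 or Y130A-litter liver 4. C1qa, a complement gene of resident macrophages, was at 90.4, 77.8, 96.4 and 91.7 CPM against 156, 136, 136 and 125 CPM (−0.63, SE 0.133, adjusted p = 0.0017), and it was also lower in lung (−0.59) and brain (−0.86). Of 18 granulocyte genes S100a8 was lower and 0 higher, of 10 mast cell, basophil and eosinophil genes the eosinophil peroxidase gene Epx was lower, and of 12 megakaryocyte genes Gp1ba was higher (1.43, adjusted p = 0.0446), with the call kept in 2 of the 8 fits that left out 1 liver. B lineage, T and NK cell genes had 0 called members. Among the 26 mitosis and DNA replication genes 0 were called, and their sum was 7040 to 7898 CPM against 7334 to 8861 CPM.

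Of 14 stellate and mesenchymal genes Pdgfra was lower (−0.43, adjusted p = 0.00955), of 14 endothelial genes Emcn was lower (−0.47, adjusted p = 0.0209, and 0.112 without S226A-litter liver 3 or 0.106 without Y130A-litter liver 1), and of 11 bile duct genes Spp1 and Bicc1 were lower. Spp1 was at 12.04 to 20.6 CPM against 14.5 to 57.7 CPM (−1.18, SE 0.35, adjusted p = 0.0221). Mesothelial, skeletal muscle, and stomach and intestine genes had 0 called members with all 8 livers. The pancreas list had Cpb1, with at most 0.73 CPM in any liver. In the list of adrenal cortex genes Hsd3b1 was lower and Akr1b7, an aldose reductase-like gene that these livers also express, was higher at 255, 115, 211 and 207 CPM against 111, 113, 121 and 65.3 CPM (0.94, adjusted p = 0.0113).

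Of 19 genes of the unfolded protein and integrated stress response, 7 were lower, among them the chaperone genes Hsp90b1 (−0.48, adjusted p = 0.00296), Pdia4 and Calr, and 2 were higher (Sesn2 and Atf5). The lower members numbered 4 without S226A-litter liver 3 and 3 without Y130A-litter liver 4, and 0 were higher without S226A-litter liver 1, S226A-litter liver 3, Y130A-litter liver 1 or Y130A-litter liver 4. Of 18 hypoxia-responsive genes 5 were lower and 0 higher, with Egln1 at 55.3 to 62.9 CPM against 68.9 to 87.2 CPM (−0.41, adjusted p = 0.00122). The lower members numbered 3 without S226A-litter liver 1, Y130A-litter liver 1 or Y130A-litter liver 4. Of 13 heat shock genes, 3 were lower, among them the mitochondrial chaperonin genes Hspd1 and Hspe1, and 2 were higher, Hsph1 and Hspb1. The lower members numbered 0 without S226A-litter liver 3, Y130A-litter liver 1 or Y130A-litter liver 4 and 1 without S226A-litter liver 1. Hspb1 was at 18.99 CPM in S226A-litter liver 2 and at 1.12 to 2.76 CPM in the other 7, and its call was lost without that liver (adjusted p = 0.851). Acute phase genes had 2 of 15 lower, Saa3 and Saa4, and 0 without S226A-litter liver 1, S226A-litter liver 3, Y130A-litter liver 1 or Y130A-litter liver 4. Immediate early genes had 0 of 19 called, and of 19 clock genes Hlf was higher (0.44, adjusted p = 0.0313) and Bhlhe41 lower (adjusted p = 0.0399), the latter at 0 to 1.06 CPM in the 8 livers.

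Of 27 interferon-stimulated genes 0 were called with all 8 livers, although 24 had a positive log2 fold change and the median was 0.40. The median was 0.25 without S226A-litter liver 3 and 0.64 without Y130A-litter liver 3, where 5 members were higher, and 0.14 without Y130A-litter liver 4. Their summed level was 1804, 1096, 2370 and 1714 CPM in the S226A litters and 1357, 1429, 1909 and 557 CPM in the Y130A litters, with Y130A-litter liver 4 lowest. Without S226A-litter liver 2, the sensor gene Xaf1 and Usp18, which limits interferon signalling, were higher at adjusted p values of 0.0263 and 0.0322. In lung 7 of the 27 were higher, where 10.8% of all genes were.

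A list of genes that differ in expression or sequence between C57BL/6 substrains was read because the background was mixed. Ide, the insulin-degrading enzyme (GRCm38 chr19:37268743-37337852), was at 190, 183, 159 and 147 CPM in the S226A-litter livers and at 103, 108, 89.0 and 118 CPM in the Y130A-litter livers, without overlap, and it was the 1 called member of 6. In lung its level was 72.0 to 115 CPM against 47.6 to 50.7 CPM and in brain 97.5 to 156 CPM against 61.3 to 65.3 CPM. In each tissue every S226A-litter embryo lay above every Y130A-litter embryo. Wdfy1 was at 33.7, 39.2, 17.5 and 40.1 CPM in S226A-litter livers 1 to 4 and at 16.8 to 18.3 CPM in the Y130A litters. The same S226A-litter embryo 3 was low in lung (30.4 CPM) and brain (27.6 CPM), where the other wild-type embryos of its set were at 55.2 to 68.2 CPM and 94.5 to 103 CPM. That embryo was thus at or near the level of the Y130A litters in all 3 tissues, which were at 22.0 to 22.9 CPM in lung and 25.7 to 28.1 CPM in brain. The level of Wdfy1 also varied within a litter. The mutant littermate of S226A-litter liver 2 was at 17.3, 19.7 and 27.6 CPM in liver, lung and brain. Mutant livers of the litters of S226A-litter livers 1, 3 and 4 were at 37.5, 15.7 and 29.7 CPM. Nnt was at 3.62 to 5.10 CPM in the S226A-litter livers and 2.89 to 4.07 CPM in the others and was not called.

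**Figure D5:**
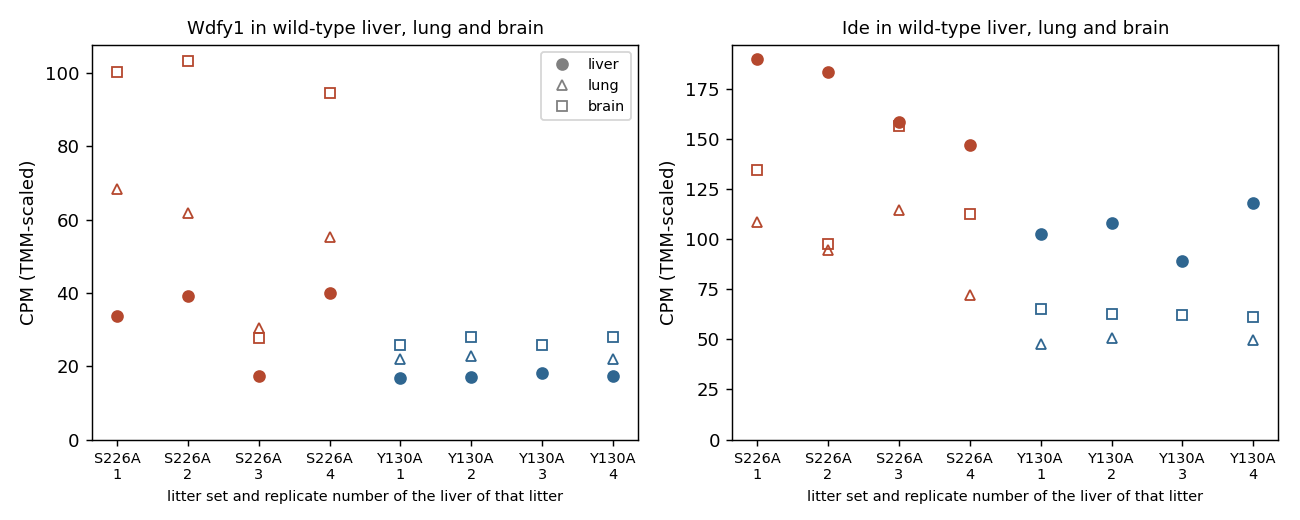
Level of Wdfy1 and Ide in TMM-scaled CPM (vertical axes, from 0) in wild-type liver, lung and brain of the 8 litters (horizontal axes, by litter set and liver replicate number, 1 lung not analysed here and the lung of S226A litter 4 from another embryo). Wdfy1 was at 17.5 CPM in the wild-type liver of S226A litter 3 and at 33.7 to 40.1 CPM in those of the other S226A litters. Lung and brain of that embryo showed the same, while Ide was higher in the wild-type embryos of all S226A litters in each tissue.

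Sequencing depth, gene length and GC content were each compared with the set differences. After thinning, the number of genes with at least 1 read was 14606 to 15827 in the S226A-litter livers and 14996 to 15690 in the Y130A-litter livers (two-sided exact permutation test, p = 0.571). The standard calls fell from 2209 to 1630, and 46 of the 70 main calls were kept. Tat, Fasn, Pygl, Idh2 and Igf2 were among the genes that remained called under the standard rule. Across genes, which are not independent replicates, the log2 fold change in liver had a Spearman correlation of 0.106 with exon length and 0.063 with GC content, against 0.238 and 0.122 in lung and 0.335 and −0.064 in brain. Offsets for length and GC content were also used, as smooth curves fitted in each library against the mean of its tissue. With them, 35 ribosomal protein genes were lower and 4 higher, 24 respiratory chain genes were lower and 3 higher, and 7 drug-metabolizing and 7 fatty acid synthesis genes were higher with 0 lower. The part of depth itself in these differences was not tested apart from the thinning, since no S226A-litter liver was as deep as a Y130A-litter liver.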

How the data were processed

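RNA-seq of E18.5 livers, lungs and brains gave 47 libraries in 12 groups. According to the submitters' methods, the authors aligned reads with STAR 2.6.0b to GRCm38.p6, counted them on GENCODE M19 genes and deposited raw counts per gene without normalization; FastQC 0.11.5 and Trim Galore 0.6.5 are listed too. The strand setting is not given in the sources used here, so that antisense and overlapping genes are uncertain. RNA came from flash-frozen tissue. The labels do not state more about replicates than the litter and embryo, so p-values measure the spread between samples as labelled. In the main fit that spread was estimated over all 47 libraries in their 12 groups, and not between the compared wild-type livers alone.

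Groups followed the labels. All 47 libraries were fitted with edgeR 4.0.16 (R 4.3.3; glmQLFit, 1 coefficient per group, TMM, filterByExpr with minimum count 10 and minimum total 15, 16892 of 20456 genes left), and the contrast was S226A-litter minus Y130A-litter wild-type liver, with Benjamini-Hochberg adjustment over all genes tested. The SE was taken as |log2 fold change|/√F of the quasi-likelihood test. Set differences were also contrasted between tissues and between mutant and wild-type livers. These contrasts had no term for embryo or litter, although the libraries shared litters and, between tissues, mostly embryos. Alternatives were DESeq2 1.42.0, limma 3.58.1 (voom with quality weights), RLE size factors, no filter, fits of fewer libraries, leaving out each liver, thinning to 15722147 reads, and length and GC offsets (mgcv 1.9.3). The scripts were tested on simulated data. Figures were drawn with matplotlib.

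Gene lists (46, with 4 more chosen after their values were seen) and tests were chosen with earlier results of these data known, so that no list is independent evidence. Genes were named by rule: among genes called with and without S226A-litter liver 2, the 12 smallest p in each direction and the 5 largest and 5 most negative changes; in each list, members called under the main rule or up to 4 with the smallest p; Nnt, Y-linked genes, and the 5 genes with the largest summed difference in level between that liver and the other 3 of its group. Other genes named, such as Pck1, Fah, Dlk1, Bex1, Krt5, Id1, Smad6, Smad7, mt-Co1 and further called list members, were chosen after their values were seen. Some genes are not reported here. Gene positions are from GENCODE M21 on GRCm38. List medians and counts are descriptions without a test.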

Additional observations from a re-analysis of the deposited data

Results flagged for a closer look

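In groups of 4, 1 liver lay apart from the other 3 by Dixon's test in 9 of 88 groups of values examined. Chance alone gives about 1 in 20 groups, but the counts cannot be compared, because for Kif6, Slc19a3 and Nek11 the other 3 livers had 0 reads, so that any read in 1 liver sets it apart, and the squamous list was read because it was known to stand apart. In the S226A-litter livers these were the squamous epithelium genes, whose sum was 1525.17 CPM in liver 2, the summed fatty acid oxidation genes with 6954.53 CPM in the same liver, below the other 3, Msantd1 with 0.99 CPM, also in liver 2, and Kif6 with 0.26 CPM, from 4 reads in that liver. In the Y130A-litter livers they were Msantd1 with 0.29 CPM, Dnah2 with 5.53 CPM, Zbtb8b with 5.27 CPM, and Slc19a3 and Nek11 with 0.05 CPM each, from 2 reads in liver 1 while the other livers of the set had 0. The squamous transcripts were also present in 1 Y130A mutant liver.

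Among the named genes with the smallest p or the largest changes in liver, the set difference of 4 departed from that in lung and brain by more than 1 on the log2 scale at an adjusted p below 0.01 in the test of that difference. Other named genes passed the same test, such as Tfr2 with 1.30 (adjusted p = 0.00728) and Gm10800 with 8.29 (adjusted p = 9.4e-05). For Tfr2 only lung had the opposite sign, at 0.05 to 0.22 against 0.42 to 0.88 CPM (log2 fold change −2.03). In liver Tfr2 had 0.405 and in brain 0.242. Of the 4 genes, Tmem150c exceeded lung and brain by 1.32 and Nat14 by 1.84 on the log2 scale, and Astn2 and Dnah2 departed downwards, by −2.25 and −2.02. The set difference among the mutant livers departed from that among the wild-type livers by −1.25 for Tmem150c, −2.32 for Nat14, −4.19 for Rims3, 2.17 for Astn2, −2.23 for Dnah2 and 2.80 for Gm49601. In these mutant livers the allele differs together with the set.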

How the results depend on the processing

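The main count of 70 genes stood at 150 with DESeq2, 7 with only the 16 livers, 0 with only the 8 wild-type livers, 30 with only 7 of them, 108 without the criterion on the standard error and 2209 with an adjusted p below 0.05 alone. Without the squamous list and both livers of the litter of S226A-litter liver 2 it was 150, and without both livers with squamous transcripts, an alternative chosen after seeing the data, 158. Leaving out 1 wild-type liver at a time gave 30 to 142 genes (30 without Y130A-litter liver 4, 122 without Y130A-litter liver 3, 142 without S226A-litter liver 2). The replicate numbers of the labels did not pair the livers, with correlations of deviations of −0.202, 0.00955, 0.0888 and 0.133 over 11325 genes, and the fit with the replicate block called 4 genes. The 25 genes that departed from lung and brain became 111 with DESeq2, 61 without S226A-litter liver 2 (24 higher and 37 lower) and 0 with limma voom and sample quality weights (60 at an adjusted p below 0.05, 4 higher and 56 lower, and 1764 at an unadjusted p below 0.05), and the 249 that departed between mutant and wild-type livers became 454 with DESeq2. The 165 list members called under the standard rule became 82 with only the 8 livers and 85 to 200 when 1 liver at a time was left out (85 without Y130A-litter liver 4, 94 without Y130A-litter liver 1, 104 without S226A-litter liver 3 and 200 without Y130A-litter liver 3). Of 3830 alternative values for 194 named genes, 3330 kept direction and side of the threshold, 363 kept direction but missed it, 118 newly passed it and 19 values without a call moved by more than the spread. The causes were not tested. The S226A-litter livers had fewer reads, and how far depth bears on genes of low level was not tested.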
